A study of Arabidopsis thaliana with 27 samples.

Results

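Seeds of the Arabidopsis thaliana mutant hid1 that had spent 48 h in darkness were compared with seeds of the wild type Col-0 (WT) that had spent 24 h in darkness. The comparison takes the 3 libraries of hid1 at 48 h and the 3 libraries of WT at 24 h, which are 6 of the 27 libraries of the series. Genotype and time differ together between these groups, so neither can be told apart from the other in a single gene. The question was therefore put gene by gene: which levels in late hid1 seeds were those of WT a day earlier, which had moved towards or reached WT at 48 h, and which were found at none of the 3 WT times of 12, 24 and 48 h.

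The series measured poly(A) RNA of whole seeds of WT, hid1 and phyB at these 3 times, with 3 biological replicates in each of the 9 groups. Seeds of all genotypes came from plants grown together, were stored dry for about 2 months, saw white light for 1 h and then red light for 5 min, which activates the photoreceptor phytochrome B, before the dark period. hid1 lacks the noncoding RNA HID1. The labels name no allele for it. The 6 libraries held between 17146306 and 21470086 counts. HID1 itself had 1 count over the 3 libraries of hid1 at 48 h and 987 over the 3 libraries of WT at 24 h, as the genotype labels say.

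A dry seed holds proteins, oil and RNAs laid down during maturation under the hormone abscisic acid (ABA). Germination requires that ABA is broken down and that gibberellin (GA) is made. Gibberellin triggers the loss of DELLA repressors, the endosperm and the embryo's cell walls loosen, the root emerges, and cell division, root hair growth and the greening programme of the seedling follow. In darkness after a red pulse, active phytochrome B starts this sequence by removing PIF1, a transcription factor that holds ABA high and gibberellin low.

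In hid1 at 48 h the seed regulator genes ABI3, ABI5 and SOM and 10 of 17 late embryogenesis genes were within 2-fold of WT at 24 h and well above WT at 48 h, and most extensins were under 1% of WT at 48 h. Of 40 cell cycle and DNA replication genes 32 were higher than in WT at 24 h, and 9, among them the helicase genes MCM4 and MCM5, were within 2-fold of WT at 48 h. Storage protein transcripts were higher than in WT at 24 h, near or below the WT level of 12 h. A further 254 genes were at least 2-fold above every WT time. These included an ABA hydroxylase, a gibberellin-inactivating oxidase, some stress-related genes and some sieve element genes. Lists of mitochondrial stress, DNA damage and phloem genes, added after these genes were seen, went both ways against WT at 24 h. Another 95 genes lay at least 2-fold below every WT time.

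Of the 20465 genes with enough counts to be tested, 12991 (63.5%) passed edgeR's quasi-likelihood test for hid1 at 48 h against WT at 24 h at a Benjamini-Hochberg adjusted p under 0.05. Of these, 6931 were higher in hid1 (33.9% of the genes tested) and 6060 lower (29.6%). These shares are the background for every gene list set against WT at 24 h below. A change of at least 2-fold was seen for 3605 genes (17.6%), of which 2526 were higher (12.3%) and 1079 lower (5.27%). Against WT at the same 48 h, 16217 genes passed (79.2%), 7424 of them higher (36.3%) and 8793 lower (43%). At least 2-fold differences from WT at 48 h numbered 7064 (34.5%). Against WT at 12 h, 15197 genes passed (74.3%), 7951 higher (38.9%) and 7246 lower (35.4%), and 6597 did so by at least 2-fold (32.2%). These comparisons share the hid1 libraries. Within WT, 16834 genes (82.3%) passed between 24 and 48 h, 9049 of them rising (44.2%) and 7785 falling (38%), and 8364 (40.9%) by at least 2-fold. The median size of the log2 difference of hid1 at 48 h was 0.42 against WT at 24 h, 0.65 against WT at 12 h and 0.67 against WT at 48 h. For 13450 genes the 95% interval of the difference from WT at 24 h lay within 2-fold, against 10817 genes for WT at 48 h and 10736 for WT at 12 h.

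The genes at least 2-fold from WT at 24 h were placed by where the other WT times lay. Of the 2526 higher genes, 1196 (47.3%) lay between WT at 24 and 48 h, at least 2-fold from each. Another 513 (20.3%) had a 95% interval within 2-fold of WT at 48 h, 254 were at least 2-fold above all 3 WT times, and 137 (5.42%) were within 2-fold of WT at 12 h and at least 2-fold above WT at 48 h. Of the lower genes, 164 of 1079 (15.2%) lay between the WT times, 292 (27.1%) were within 2-fold of WT at 48 h, 95 (8.8%) below all 3 WT times and 57 (5.28%) within 2-fold of WT at 12 h and beyond WT at 48 h. The rest could not be placed by the 95% interval or lay between WT at 12 and 24 h. Over all genes tested, these classes held 5.84% (between, rising), 0.801% (between, falling), 2.51% (as WT at 48 h, higher), 1.43% (as WT at 48 h, lower), 1.24% (above all WT times) and 0.464% (below all WT times).

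**Figure D1:**
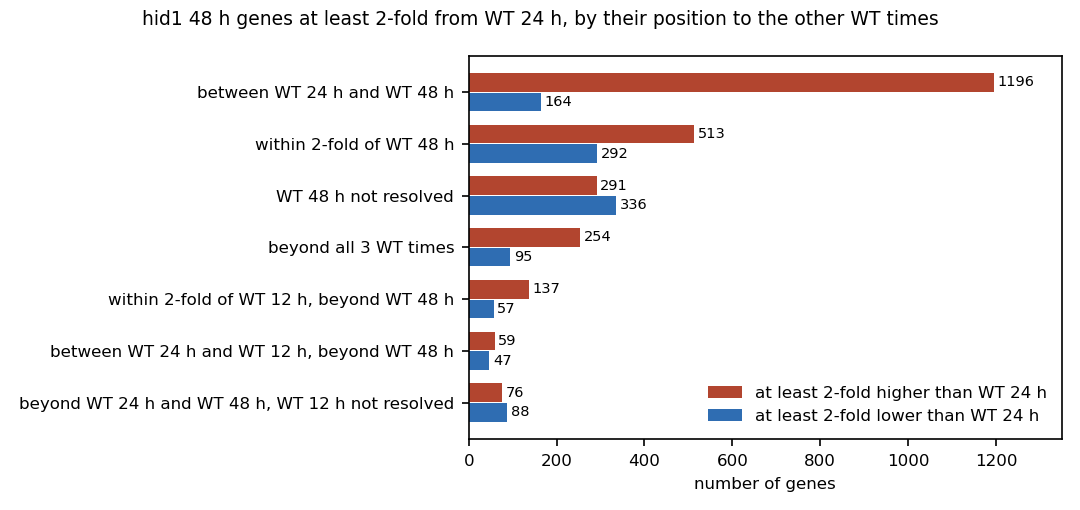
Number of genes (x axis) at least 2-fold higher (red) or lower (blue) in hid1 at 48 h than in WT at 24 h, sorted by their position relative to the other WT times (y axis). The longest bar holds 1196 higher genes that lay between WT at 24 and 48 h, and 254 higher and 95 lower genes were beyond all 3 WT times.

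A gene was counted as held at the WT state of 24 h when the 95% interval of its difference from WT at 24 h was within 2-fold and it differed from WT at 48 h by at least 2-fold with an adjusted p under 0.05 in edgeR's test. This held for 1161 genes that were above WT at 48 h (5.67% of the genes tested) and 1732 that were below it (8.46%). WT at 12 h did not enter the definition, so a held gene can also lie near its WT level of 12 h. All 1161 of the first group had at least 10 counts in both groups, and 1471 of the second did. The remainder of the second group were near 0 in both, such as BGLU35, a beta glucosidase with no count in hid1 at 48 h or WT at 24 h and 3482 counts in WT at 48 h. With hid1 set to 3 counts over its group, the limit that a count of 0 allows, BGLU35 was at least 947-fold higher in WT at 48 h. AT1G52070, a mannose-binding lectin gene, and AT4G12510, of the lipid-transfer protein superfamily, were likewise at 0 counts in both groups, and WT at 48 h was at least 351-fold and at least 335-fold above hid1.

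The first group held 9 of the 25 tested genes of ABA signalling and dormancy, among them ABI3, SOM and ABI5. ABI3, a transcription factor that keeps the seed programme running, was at 424, 429 and 436 CPM, counts per 1e+06 counts on normalised library sizes, in hid1 at 48 h. The WT libraries at 24 h had 439, 460 and 441 CPM, and those at 48 h 52.7, 56 and 61.7 CPM. The hid1 values lay under those of WT at 24 h, by less than the spread between libraries, and far above those of WT at 48 h. The log2 difference of ABI3 was -0.06 ± 0.07 (SE, 3 libraries per group) from WT at 24 h and 2.92 ± 0.08 from WT at 48 h (adjusted p = 1.93e-21, edgeR's quasi-likelihood test with Benjamini-Hochberg adjustment).

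SOM, which encodes a zinc finger protein that represses germination downstream of PIF1, had 475, 495 and 519 CPM in hid1 at 48 h. It had 425, 466 and 429 CPM in WT at 24 h and 45.6, 58.4 and 57.1 CPM in WT at 48 h. All hid1 libraries were above all WT libraries at 24 h, by a log2 difference of 0.17 ± 0.08 that did not pass (adjusted p = 0.0569, edgeR with Benjamini-Hochberg adjustment). It passed when the libraries were scaled by RLE size factors, with a log2 difference of 0.20.

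ABI5, a bZIP factor that carries the ABA response in seeds, had 251, 248 and 241 CPM in hid1 at 48 h and 188, 198 and 183 CPM in WT at 24 h. The groups did not overlap, and the log2 difference of 0.38 ± 0.07 passed (adjusted p = 1.47e-05, edgeR with Benjamini-Hochberg adjustment) while its 95% interval of 0.24 to 0.51 stayed within 2-fold. At 48 h WT was at 27.9, 36.5 and 32.9 CPM. RGL2, the DELLA repressor with the leading part in seeds, had 226, 219 and 222 CPM in hid1 at 48 h against 290, 297 and 275 CPM in WT at 24 h, a log2 difference of -0.37 ± 0.07, and 59.7, 53.3 and 57.1 CPM in WT at 48 h.

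Of 25 tested genes of ABA signalling and dormancy, 9 were higher and 7 lower than in WT at 24 h, with a median log2 difference of 0.09, beside 0.04 over all genes. Against WT at 48 h 17 were higher and 5 lower, with a median of 1.38. Another held member was AHG1, a phosphatase that acts in seed ABA signalling, at 114, 112 and 116 CPM in hid1, 66.9, 74.1 and 69.2 CPM in WT at 24 h and 8.83, 9.33 and 10.3 CPM in WT at 48 h. AHG1 lay between the 2 earlier WT times, since WT had 315, 260 and 291 CPM at 12 h.

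Members of this list did not stand together. EEL, a bZIP factor that competes with ABI5 in seeds, was at 106, 121 and 93.6 CPM in hid1 at 48 h against 20.1, 28.6 and 22.7 CPM in WT at 24 h and 64.1, 69.7 and 69.1 CPM in WT at 12 h, above every WT library of the 3 times. PYR1, an ABA receptor, was at 55.8, 58.2 and 50.8 CPM against 212, 197 and 203 CPM in WT at 24 h, and was also below WT at 48 h with 85.4, 79.8 and 70.2 CPM. SNRK2.3, an ABA-activated kinase, had 45.5, 45.6 and 49.3 CPM against 103, 101 and 103 CPM in WT at 24 h and 33.7, 35.3 and 41.8 CPM in WT at 48 h, so this kinase had fallen nearly to the WT level of 48 h. DOG1, a dormancy gene, had 0.0848, 0.194 and 0.0498 CPM in hid1 at 48 h and 0.0983, 0.0927 and 0.45 CPM in WT at 24 h, overlapping values close to the detection limit, while WT at 12 h had 2.18, 1.31 and 1.58 CPM.

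Promoters of genes held at the WT state of 24 h and above WT at 48 h were read for the G-box CACGTG, the letters bound by ABI5 and PIF factors, on both strands in the 250 bases before the annotated start. Of 1088 such promoters, 167 (15.3%) held it, beside 7.53% of the promoters of all 19587 tested protein-coding genes. Other motifs were read too. The ABRE core ACGTG was in 347 (31.9%) beside 4711 (24.1%) of all. Every G-box contains it, so these counts include the 167 promoters with a G-box and the 1474 of all. The ABRE share is thus no separate result. The RY motif CATGCA was in 10.9% beside 7.78%. The mitosis-specific activator core AACGG was in 21% beside 21.9%. The promoter of ABI5 itself holds 3 and that of LEA18 1, as shown here from RefSeq's TAIR10.1 assembly with the G-box in capitals. The ABI5 window is chr2:15207637-15207886 on the minus strand, and the LEA18 window is chr2:14863413-14863662 on the minus strand.
ABI5: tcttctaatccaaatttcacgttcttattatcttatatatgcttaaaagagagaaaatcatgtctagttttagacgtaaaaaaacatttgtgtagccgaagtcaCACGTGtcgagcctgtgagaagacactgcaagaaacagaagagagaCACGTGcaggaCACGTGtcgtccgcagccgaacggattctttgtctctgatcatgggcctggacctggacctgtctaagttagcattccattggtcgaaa
LEA18: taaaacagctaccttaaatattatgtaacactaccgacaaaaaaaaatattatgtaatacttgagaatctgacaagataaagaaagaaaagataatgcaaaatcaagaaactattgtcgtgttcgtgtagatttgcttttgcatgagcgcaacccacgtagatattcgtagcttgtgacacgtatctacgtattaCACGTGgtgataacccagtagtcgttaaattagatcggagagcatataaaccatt
A match is a run of letters and was not tested for binding.

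Late embryogenesis abundant (LEA) genes, whose products protect the drying embryo, were higher than WT at 48 h in 17 of 17 tested members and lower than WT at 12 h in 16 of 17. Against WT at 24 h, 12 were higher and none lower, with a median log2 difference of 0.51. In 10 of the 17 the level was that of WT at 24 h within 2-fold. LEA4-1 shows the held state, with 584, 605 and 538 CPM in hid1 at 48 h, 560, 612 and 573 CPM in WT at 24 h and 29.8, 43.3 and 41.3 CPM in WT at 48 h. LEA18 had 2018, 1881 and 1310 CPM against 1251, 1475 and 1272 CPM in WT at 24 h, a log2 difference of 0.38 ± 0.16 with overlapping libraries, and 111, 167 and 116 CPM in WT at 48 h. EM1, an early methionine-labelled protein gene, lay further back, with 1390, 1389 and 1120 CPM against 550, 692 and 587 CPM in WT at 24 h and 3174, 3791 and 2866 CPM in WT at 12 h.

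Seed storage and oil body genes lay between WT at 12 h and WT at 24 h in the median. Of 15 tested members, 13 were higher than in WT at 24 h and none lower, with a median log2 difference of 1.71, and 15 were higher than in WT at 48 h, with a median of 2.90. Against WT at 12 h none was higher and 13 were lower, with a median of -1.50. CRA1, the 12S globulin cruciferin, was at 28590, 32940 and 25660 CPM in hid1 at 48 h, 5520, 7572 and 6138 CPM in WT at 24 h and 25260, 31600 and 25450 CPM in WT at 12 h. The hid1 libraries of CRA1 overlapped those of WT at 12 h and lay above all of WT at 24 h, by a log2 difference of 2.18 ± 0.18 (adjusted p = 5.90e-11, edgeR with Benjamini-Hochberg adjustment).

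CRU3, another cruciferin, had a log2 difference of 2.73 ± 0.21 from WT at 24 h and of 0.04 ± 0.20 from WT at 12 h. The mean level of CRA1 in hid1 was 28943 CPM after 12 h, 11359 CPM after 24 h and 29064 CPM after 48 h, so the level in hid1 was lower at 24 h than at either other time. Other members did not return to the 12 h level. OLEO4, an oleosin of the oil body surface, had 268, 287 and 199 CPM in hid1 at 48 h, between 61.3, 87.3 and 81.6 CPM in WT at 24 h and 745, 682 and 703 CPM in WT at 12 h. The 2S albumin genes varied between WT libraries at 24 h: SESA4 had 157, 140 and 162 CPM in hid1 and 6.83, 6.21 and 44.8 CPM in WT at 24 h, where replicate 3 stood apart. The same holds for SESA3, with 351, 347 and 336 CPM against 98.3, 95.7 and 389 CPM, which did not pass (adjusted p = 0.0843, edgeR with Benjamini-Hochberg adjustment). In whole seeds, a different number of cells that keep such transcripts and a different RNA level per cell cannot be told apart.

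**Figure D2:**
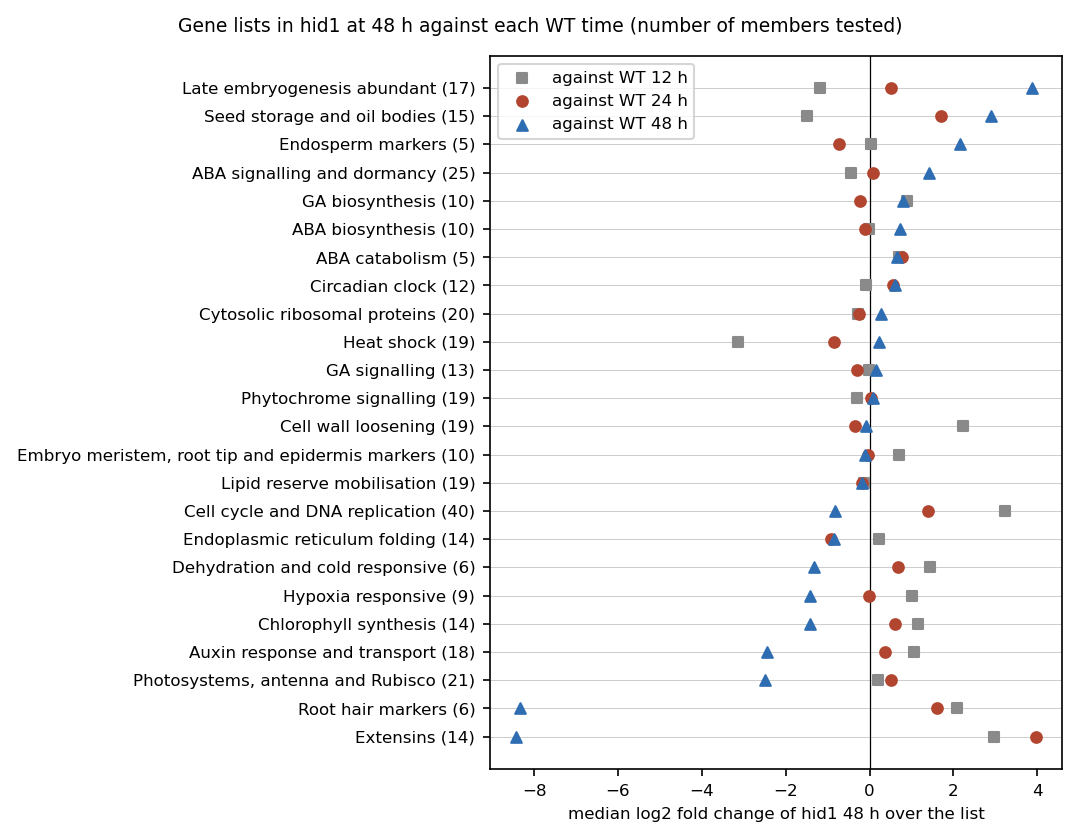
Median log2 difference (x axis) of hid1 at 48 h from WT at 12 h (grey squares), 24 h (red circles) and 48 h (blue triangles) for each gene list (y axis, number of tested members in parentheses). Genes with no count in a group enter at their bound. LEA genes lie at 0.51 against WT at 24 h and 3.88 against WT at 48 h, storage genes at 1.71 and 2.90, and extensins at -8.44 against WT at 48 h.

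Genes of hormone metabolism split into held, advanced and off-course members. Of the 10 ABA biosynthesis genes, 3 were higher and 1 lower than in WT at 24 h, beside 33.9% and 29.6% of all genes tested. ABA1, zeaxanthin epoxidase, which makes the carotenoid precursor of ABA, was at 115, 111 and 114 CPM in hid1 at 48 h. It was at 44.7, 56.5 and 50.4 CPM in WT at 24 h and 183, 181 and 182 CPM in WT at 12 h, so hid1 lay between the early WT times with no overlap.

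The 9-cis-epoxycarotenoid dioxygenases cut that precursor and are held to set the pace of ABA synthesis. NCED6, an endosperm member, had 7.33, 6.41 and 4.63 CPM in hid1 at 48 h against 1.33, 1.57 and 1.25 CPM in WT at 24 h, 1.07, 1.31 and 0.994 CPM in WT at 12 h and 0.359, 0.311 and 0.406 CPM in WT at 48 h. It was above all WT libraries and at least 2-fold above all 3 WT times, by a log2 difference of 2.14 ± 0.21 from WT at 24 h (adjusted p = 1.45e-09, edgeR with Benjamini-Hochberg adjustment). NCED9 was held, with 3.9, 3.5 and 3.84 CPM against 3.44, 4.82 and 4.65 CPM in WT at 24 h and 0.754, 0.656 and 0.677 CPM in WT at 48 h. NCED5 was lower than in WT at 24 h, with 1.53, 1.12 and 1.3 CPM against 3.83, 3.98 and 4.45 CPM, and above the 0.215, 0.622 and 0.542 CPM of WT at 48 h. NCED2 and NCED3 did not pass against WT at 24 h, with log2 differences of -1.08 ± 0.50 and -0.45 ± 0.29. The dioxygenases thus stood on both sides of WT at 24 h.

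ABA hydroxylases inactivate ABA. CYP707A2, the member that acts early in imbibed seeds, was held at 18.8, 15.7 and 16.6 CPM against 29.3, 26.6 and 29 CPM in WT at 24 h, while WT at 48 h had 0.502, 0.726 and 1.17 CPM. Its log2 difference from WT at 24 h of -0.73 ± 0.10 passed, with a 95% interval of -0.93 to -0.52. CYP707A1 behaved otherwise, with 56.7, 54 and 66 CPM in hid1 at 48 h, 2.85, 3.29 and 3.45 CPM in WT at 24 h and 22.5, 23.1 and 24.1 CPM in WT at 48 h. CYP707A1 was above every WT library, by log2 differences of 4.20 ± 0.14 from WT at 24 h (adjusted p = 7.06e-19) and 1.34 ± 0.10 from WT at 48 h (adjusted p = 3.71e-12, both edgeR with Benjamini-Hochberg adjustment). CYP707A3 was near the WT level of 48 h, with 16.5, 14.9 and 16.4 CPM against 14.2, 11.2 and 10.3 CPM there and 5.6, 6.02 and 5.95 CPM in WT at 24 h. All its hid1 libraries lay above all WT libraries at 48 h.

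In gibberellin synthesis, 3 of 10 tested genes were higher and 4 lower than in WT at 24 h, beside 33.9% and 29.6% of all genes tested. GA3OX1 and GA3OX2 encode the oxidases of the last step to active gibberellin. GA3OX1 was at 2.76, 3.01 and 1.69 CPM in hid1 at 48 h, against 7.62, 4.21 and 6.25 CPM in WT at 12 h. The later WT libraries had 7.76, 6.25 and 6.3 CPM (24 h) and 17, 16.2 and 13.5 CPM (48 h). It was below every WT library, with a log2 difference of -1.43 ± 0.21 from WT at 24 h (adjusted p = 1.24e-06, edgeR with Benjamini-Hochberg adjustment). GA3OX2 had 0.636, 0.437 and 0.548 CPM against 5.11, 4.17 and 4.5 CPM in WT at 24 h, and overlapped the 0.863, 0.285 and 0.935 CPM of WT at 12 h.

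Of the gibberellin 20-oxidases, which act in the steps before, GA20OX2 and GA20OX3 were held. GA20OX3 had 193, 185 and 214 CPM in hid1 at 48 h, 184, 190 and 179 CPM in WT at 24 h and 15.1, 17.6 and 20.6 CPM in WT at 48 h. GA2OX2, which inactivates gibberellin, was at 57.2, 52.3 and 49.7 CPM against 9.04, 9.78 and 8.45 CPM in WT at 24 h and 2.51, 2.35 and 1.94 CPM in WT at 48 h. GA2OX2 was above every WT library, by a log2 difference of 2.54 ± 0.09 from WT at 24 h (adjusted p = 1.13e-17, edgeR with Benjamini-Hochberg adjustment). Of the 3 tested genes of gibberellin inactivation, only GA2OX2 passed against WT at 24 h. The other 2 were lower than in WT at 48 h. Among GA-regulated peptide genes, GASA1 had risen from 0.295, 0.0927 and 0.15 CPM in WT at 24 h to 36.2, 33.8 and 28.6 CPM, beside 69.4, 57.7 and 44.7 CPM in WT at 48 h. GASA6 was at 16.4, 16.6 and 25.6 CPM in hid1, against 263, 202 and 228 CPM in WT at 24 h and 19.9, 11.1 and 15.8 CPM in WT at 48 h. GASA6 in hid1 thus overlapped WT at 48 h and lay below all libraries of WT at 24 h.

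**Figure D3:**
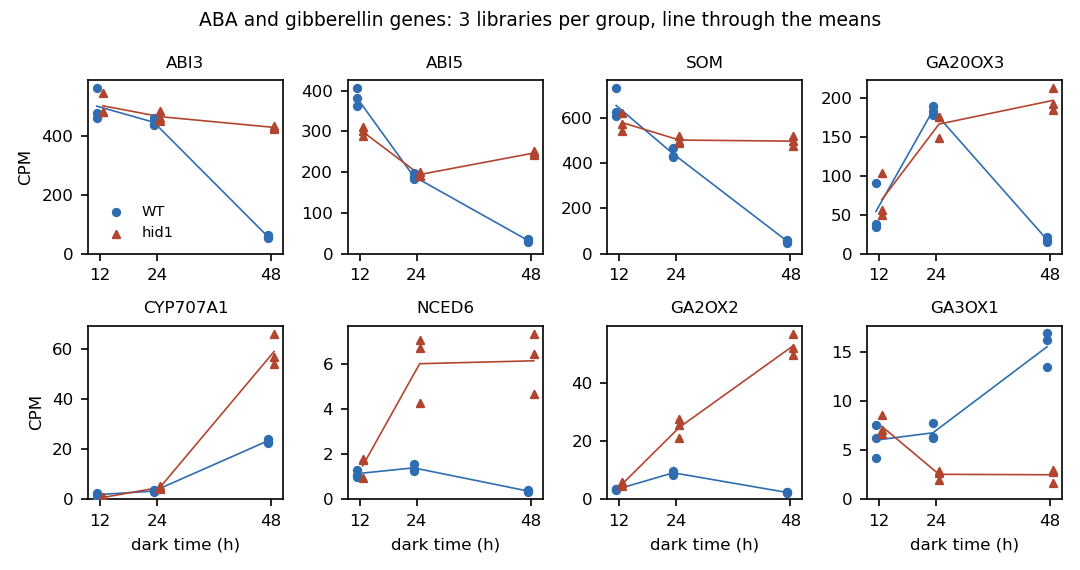
Level (y axis, CPM) against dark time (x axis, h) of 8 ABA and gibberellin genes in WT (blue circles) and hid1 (red triangles), with 1 point per library and a line through the group means. ABI3, SOM and GA20OX3 in hid1 at 48 h overlie or lie near WT at 24 h, while CYP707A1, NCED6 and GA2OX2 are above and GA3OX1 is below every WT point.

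Phytochrome signalling genes did not move as a group: 6 of 19 were higher and 8 lower than in WT at 24 h, with a median log2 difference of 0.04. The shares over all genes tested were 33.9% and 29.6%. PIF1 (PIL5 in the table) was at 99.2, 103 and 99.5 CPM in hid1 at 48 h, between 134, 137 and 135 CPM in WT at 24 h and 75.1, 71.4 and 75.6 CPM in WT at 48 h. PHYB, the photoreceptor gene, had 147, 142 and 156 CPM against 124, 126 and 124 CPM in WT at 24 h, a log2 difference of 0.25 ± 0.06 with no overlap. PIL2, another PIF-like factor gene, was at 188, 192 and 196 CPM against 23.7, 31.6 and 34.1 CPM in WT at 24 h, and WT had at most 57.4 CPM at any time. FHL, which carries phytochrome A into the nucleus, had 31.2, 32.8 and 34 CPM against 4.67, 5.14 and 7 CPM in WT at 24 h, and was also above the 18.9, 18.3 and 24.2 CPM of WT at 48 h.

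Cell cycle and DNA replication genes had moved on. Of 40 tested, 32 were higher than in WT at 24 h and 3 lower, with a median log2 difference of 1.39. Against WT at 48 h 4 were higher and 30 lower, with a median of -0.81. In this list 9 genes were at the WT level of 48 h and at least 2-fold above WT at 24 h, and 16 lay between. The replication helicase genes were among the first. MCM5 was at 80.9, 75 and 74.8 CPM in hid1 at 48 h, 23.6, 22.7 and 22.7 CPM in WT at 24 h and 80.2, 83.7 and 85.6 CPM in WT at 48 h. MCM4 was at 54.8, 56.5 and 61.4 CPM, against 24.1, 23.6 and 22.6 CPM in WT at 24 h and 63.9, 62 and 60.6 CPM in WT at 48 h. Their differences from WT at 48 h did not pass (log2 differences -0.11 ± 0.07 for MCM5 and -0.11 ± 0.07 for MCM4), with the 95% intervals within 2-fold.

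Genes of mitosis lay between the WT times. CYCB1;2, a mitotic cyclin, had 6.74, 5.34 and 4.58 CPM in hid1 at 48 h, 0, 0.0463 and 0.05 CPM in WT at 24 h and 22.8, 24.9 and 24.8 CPM in WT at 48 h. KN, the syntaxin of the dividing cell's new wall, had 6.45, 6.12 and 3.69 CPM against 23.6, 26.1 and 20.9 CPM in WT at 48 h. Both stood at 23% of the WT mean at 48 h.

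E2F factors switch on replication genes and bind the letters TTTCCCGC, TTTGCCGC or TTTGGCGC. Of 455 promoters of genes at the WT level of 48 h and above WT at 24 h, 28 (6.15%) held one of these on either strand within 250 bases before the start, beside 1.32% of all tested protein-coding genes. The MCM5 and MCM4 windows are shown with the E2F letters in capitals, at chr2:3527501-3527750 and chr2:7130730-7130979 of TAIR10.1, both on the minus strand. In MCM4 the match lies on the opposite strand of the run shown.
MCM5: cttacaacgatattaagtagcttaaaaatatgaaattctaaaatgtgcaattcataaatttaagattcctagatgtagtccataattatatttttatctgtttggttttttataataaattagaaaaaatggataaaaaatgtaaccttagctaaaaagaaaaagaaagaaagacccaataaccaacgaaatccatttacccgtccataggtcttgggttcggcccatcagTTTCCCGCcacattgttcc
MCM4: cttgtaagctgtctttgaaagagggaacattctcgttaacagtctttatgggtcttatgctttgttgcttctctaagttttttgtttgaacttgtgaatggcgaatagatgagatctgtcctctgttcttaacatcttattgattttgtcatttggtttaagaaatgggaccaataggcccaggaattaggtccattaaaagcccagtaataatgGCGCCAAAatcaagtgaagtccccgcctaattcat

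The genes that WT switches on after 24 h are described by their level in hid1. There were 221 genes under 0.5 CPM in WT at 24 h and at 20 CPM or more in WT at 48 h, limits that were chosen after the data were seen. Genes chosen for a high level in WT at 48 h are bound to lie below it elsewhere, so the levels are given as a description with no test. In hid1 at 48 h their median level was 0.866% of WT at 48 h, with quartiles of 0.279% and 4.86%. By level, 114 were under 1% of WT at 48 h and 55 between 1 and 5%, while 12 were at 20 to 50% and 2 above that. Their summed level was 2.13%, 2.49% and 2.09% of WT at 48 h in the 3 hid1 libraries, and 0.122% to 0.138% in those of WT at 24 h. In WT at 12 h the libraries were unequal, with 0.884%, 0.188% and 0.453%.

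Extensins, structural proteins of the cell wall, and root hair genes were at the low end. All 14 tested extensins were between WT at 24 and 48 h. Against WT at 12 h, 9 of the 14 were higher and 1 lower. AT1G23720, an extensin-like gene, was at 1.27, 4.95 and 0.498 CPM in hid1 at 48 h, 0 in every library of WT at 24 h and 1337, 1142 and 977 CPM in WT at 48 h. With 142 counts against none, hid1 was at least 44.3-fold above WT at 24 h, and it stood at 0.195% of WT at 48 h. EXT3 was an exception in level, at 138, 135 and 118 CPM against 18.7, 17.8 and 15.9 CPM in WT at 24 h and 1016, 857 and 756 CPM in WT at 48 h.

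One library carried much of this low signal. The median over the extensins was 0.772% of WT at 48 h in hid1 replicate 2, against 0.114% and 0.0254% in replicates 1 and 3, and for 6 root hair genes it was 0.787%, against 0.106% and 0.0639%. WT at 12 h overlapped hid1, with extensin medians of 0.0692%, 0.00893% and 0.039% and root hair medians of 0.219%, 0% and 0.0857%. Of the 6 root hair genes, 1 was higher in hid1 at 48 h than in WT at 12 h. Without hid1 replicate 2, 8 of the 14 extensins passed against WT at 24 h in place of 14, and 1 root hair gene in place of 4. EXPA7, a root hair expansin, had 0.0424, 0.291 and 0.0498 CPM in hid1 at 48 h and no count in WT at 24 h, where it passed with an adjusted p of 0.025 that was 0.132 without that replicate (edgeR with Benjamini-Hochberg adjustment). EXPA18 and LRX1 lost their calls in the same way, with adjusted p = 0.302 and 0.633 in edgeR's test. The distance to WT at 48 h rested on no single library, since all 14 extensins and all 6 root hair genes were lower than in WT at 48 h.

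**Figure D4:**
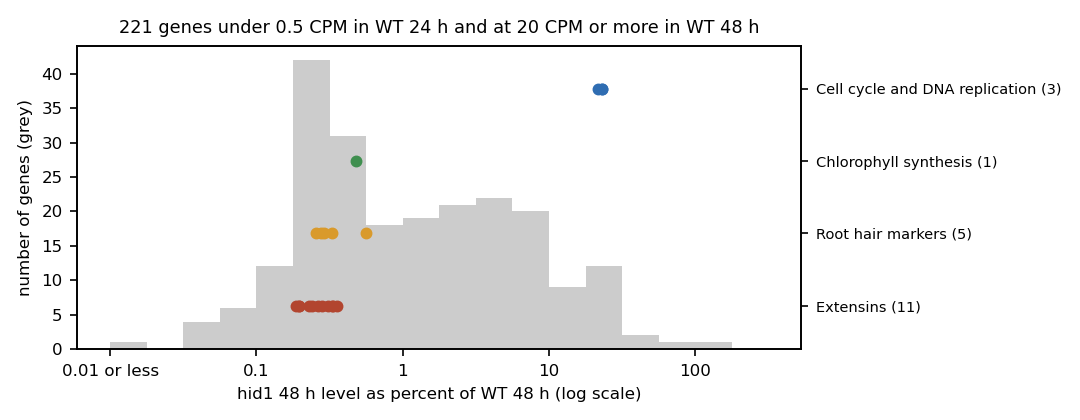
Distribution of the hid1 level at 48 h as percent of WT at 48 h (x axis, log scale) for 221 genes that WT switched on after 24 h (grey bars, number of genes on the left axis), with members of 4 lists as coloured points (right axis, number of members). The extensins and root hair genes among these 221 and PORA lie below 1%, and the cell cycle genes CYCB1;2 and KN at 23%.

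PORA and PORB encode protochlorophyllide oxidoreductases, which dark-grown seedlings accumulate. PORA was at 2.33, 4.13 and 1.2 CPM in hid1 at 48 h, 0 in every library of WT at 24 h and 391, 624 and 582 CPM in WT at 48 h, so hid1 was at least 51.1-fold above WT at 24 h and at 0.479% of WT at 48 h. PORB was at 4.24, 5.78 and 2.39 CPM against 1.43, 1.02 and 0.6 CPM in WT at 24 h and 633, 875 and 755 CPM in WT at 48 h. WT at 12 h held 2.39, 0.342 and 2.16 CPM of PORA, which overlapped hid1 at 48 h.

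Of 14 chlorophyll synthesis genes, 11 were higher and 1 lower than in WT at 24 h, with a median log2 difference of 0.60, and 13 were lower than in WT at 48 h. In 6 of them the level was held at WT 24 h, such as CHLH, a magnesium chelatase subunit, at 0.551, 0.874 and 1.05 CPM against 1.08, 0.649 and 1.25 CPM in WT at 24 h and 24.2, 27.4 and 27.1 CPM in WT at 48 h. Of 21 photosystem, antenna and Rubisco genes, 9 were higher and 1 lower than in WT at 24 h, and 20 were lower than in WT at 48 h. RBCS1A, the small subunit of Rubisco, had 794, 715 and 575 CPM against 242, 294 and 242 CPM in WT at 24 h and 990, 1246 and 906 CPM in WT at 48 h.

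Auxin response and transport genes were mostly lower than in WT at 48 h. Of 18 tested, 16 were lower than in WT at 48 h and none higher, with a median of -2.44, while 6 were higher and 4 lower than in WT at 24 h. Of the 18, 3 were within 2-fold of WT at 24 h and at least 2-fold below WT at 48 h. Among these, PIN3, an auxin efflux carrier, was at 28.9, 28.1 and 25.6 CPM against 32.9, 30.2 and 28 CPM in WT at 24 h and 158, 150 and 157 CPM in WT at 48 h. PIN7 had fallen below WT at 24 h, with 13.3, 11.9 and 13.8 CPM against 55.1, 51.5 and 53 CPM, and overlapped WT at 12 h with 14.6, 13.8 and 17.9 CPM.

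Among groups lower than in WT at 24 h, endoplasmic reticulum folding genes moved together, with 14 of 14 lower and a median log2 difference of -0.92. Against WT at 48 h 10 were lower and 2 higher, with a median of -0.85. Against WT at 12 h 3 were lower and 8 higher, with a median of 0.22. BIP1, a chaperone of the secretory pathway, was at 365, 355 and 334 CPM in hid1 at 48 h against 737, 674 and 639 CPM in WT at 24 h and 323, 264 and 312 CPM in WT at 12 h. Of 19 cell wall loosening genes, 10 fell and 3 rose. EXPA1, an expansin, was at 111, 94 and 124 CPM against 1026, 904 and 922 CPM in WT at 24 h, beside 200, 145 and 147 CPM in WT at 48 h and 154, 135 and 171 CPM in WT at 12 h. EXPA10 was at 67.8, 62.3 and 78.1 CPM against 567, 552 and 570 CPM in WT at 24 h. For EXPA1 and EXPA10 hid1 at 48 h was thus nearer to both other WT times than to WT at 24 h, where WT had its highest level.

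EXPA2, an expansin of the endosperm, lay between, with 435, 398 and 429 CPM against 989, 857 and 856 CPM in WT at 24 h and 174, 100 and 91.3 CPM in WT at 48 h. Of the 5 tested endosperm markers, 5 were higher than in WT at 48 h, 2 were higher and 3 lower than in WT at 24 h. Their summed level was 3071 to 3228 CPM in hid1 at 48 h, 2599 to 3132 CPM in WT at 24 h, 757.8 to 922.2 CPM in WT at 48 h and 6974 to 8703 CPM in WT at 12 h. Of the 8 seed coat flavonoid markers only TT4, chalcone synthase, had enough counts to be tested, at about 1 CPM or less in hid1. Of 10 tested markers of the embryo meristems, root tip and epidermis, 3 were higher and 2 lower than in WT at 24 h, with summed levels of 933.6 to 1006 CPM in hid1 and 773.7 to 838 CPM in WT at 24 h. The part of tissue proportions in the differences was not tested.

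The genes that WT switches off varied in hid1. There were 124 genes at 20 CPM or more in WT at 24 h that fell at least 8-fold by 48 h. In hid1 at 48 h their median was 59.6% of WT at 24 h, with quartiles of 32.4% and 108%, given as a description since the genes were chosen for their fall in WT. In 37 of them hid1 was at or above the WT mean of 24 h, and in 5 it was at 12.5% of it or lower. The largest falls from WT at 24 h were deeper than this median, and of the following genes only PMZ was below WT at 48 h. PMZ, a zinc finger gene, was at 1.02, 1.21 and 1.69 CPM against 51.1, 41.2 and 49.4 CPM in WT at 24 h, and was also below WT at 48 h with 3.91, 2.97 and 3.93 CPM. ACA7, a carbonic anhydrase gene, was at 0.721, 0.583 and 0.399 CPM against 12.2, 10.8 and 10 CPM, below the 20 CPM limit of the 124 genes. ACA7 had 37 counts in hid1 at 48 h and 3 in WT at 48 h, so it had fallen less far than in WT. PRX52, a peroxidase gene, was at 2.12, 2.43 and 3.94 CPM against 45.6, 38.5 and 39.9 CPM, within the wide range of WT at 12 h of 10.2, 0.171 and 9.47 CPM. The mean of PRX52 at 48 h was 2.83 CPM in hid1 and 0.722 CPM in WT.

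Ribosomal protein genes were lower than in WT at 24 h in 14 of 20 and higher in none, with a small median of -0.25, and higher than in WT at 48 h in 17. In the heat shock list of 19, 9 fell and 4 rose. In that of lipid mobilisation, the route from oil to sugar, 11 of 19 fell and 3 rose. ICL, isocitrate lyase of the glyoxylate cycle, did not pass, at 13210, 12940 and 13670 CPM against 12120, 12400 and 10860 CPM in WT at 24 h. Raffinose family genes, which make the sugars of dry seeds, were higher in 4 of 4. STS, stachyose synthase, was at 35, 40.2 and 32.4 CPM against 4.37, 6.21 and 5.3 CPM in WT at 24 h and 24.4, 31.3 and 28.4 CPM in WT at 12 h. Of 12 circadian clock genes 7 rose and 1 fell, and of 9 hypoxia genes 3 rose and 3 fell. Over all genes tested 33.9% were higher and 29.6% lower than in WT at 24 h, and the hypoxia counts were near these shares.

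The 254 genes above all 3 WT times had a median level of 2.99 CPM, and 72 of them reached 10 CPM in hid1. For all 72 the hid1 libraries lay above every WT library, a separation that the way these genes were chosen makes likely in advance. Their mean in hid1 was already more than 2-fold above all 3 WT means in 102 of the 254 at 24 h and in 52 at 12 h. AT1G17960, annotated as a threonyl-tRNA synthetase, was at 57.9, 56.7 and 59.5 CPM in hid1 at 48 h, 0.147, 0.185 and 0.05 CPM in WT at 24 h and 0.861, 0.898 and 1.08 CPM in WT at 48 h. AT3G24780 was at 26.5, 26.3 and 23.9 CPM, with 1647 counts against 3 in WT at 24 h, a ratio of 514 with a counting interval of 175 to 2490. AT5G59390, an XH/XS domain gene, was at 12.6, 10.6 and 9.67 CPM, with 709 counts against 3, a ratio of 221 (75.3 to 1070). These intervals cover counting error only. No WT library of any time exceeded 1.1 CPM for these 3 genes.

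QQS, a gene that affects starch content, was at 22.5, 22.3 and 22.3 CPM in hid1 at 48 h against 0.442, 0.463 and 0.4 CPM in WT at 24 h and still less at 48 h. AT2G04050, a MATE efflux gene, was at 80, 76.9 and 81 CPM against 0.835, 0.417 and 1.5 CPM in WT at 24 h and 4.16, 2.59 and 4.92 CPM in WT at 48 h. AT2G18193, an ATPase-like gene, was at 88.2, 94.9 and 83.6 CPM against 4.77, 4.4 and 3.95 CPM in WT at 24 h and 1.44, 1.52 and 1.49 CPM in WT at 48 h. Other members were EMB1030, an alanyl-tRNA synthetase, at 198, 201 and 202 CPM against 52.4, 51.5 and 49.7 CPM in WT at 24 h, ACC2, the plastid acetyl-CoA carboxylase, with a log2 difference of 1.95 ± 0.06, and the nucleolin gene NUC-L2, with one of 2.31 ± 0.09. The 3 were chosen after their values were seen.

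The mitochondrial dysfunction motif, CTTG and then CAAG or CACG after 5 bases of any kind, is bound by NAC factors that respond to disturbed mitochondria. It was found on either strand in 14 of the 203 promoters of genes above all WT times (6.9%), beside 0.914% of all 19587 promoters. Read the other way, 14 of the 179 promoters that hold it (7.82%) belong to genes above all WT times, beside 1.04% of all promoters. The form that ends in CAAG always contains the motif of SOG1, the DNA damage regulator, which is CTT and AAG with 7 bases of any kind between, and which 16.7% of the 203 promoters held beside 9.02% of all. Leaving out those that are also the mitochondrial motif, the shares were 10.3% and 8.47%. The motifs were chosen with these genes known. Shown with the motif in capitals are 5 of these 14 promoters, those of genes described here and chosen after their values were seen, from TAIR10.1: AT5G59390 at chr5:23954076-23954325 (plus strand), AT1G17960 at chr1:6183807-6184056 (minus), AT2G18193 at chr2:7919346-7919595 (minus), AT2G04050 at chr2:1339469-1339718 (minus) and NAC044 at chr3:228825-229074 (plus).
AT5G59390: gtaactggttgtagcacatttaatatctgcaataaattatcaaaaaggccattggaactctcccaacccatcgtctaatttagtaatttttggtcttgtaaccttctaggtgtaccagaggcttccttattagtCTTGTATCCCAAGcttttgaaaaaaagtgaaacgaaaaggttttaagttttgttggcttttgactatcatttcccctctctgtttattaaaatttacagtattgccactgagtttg
AT1G17960: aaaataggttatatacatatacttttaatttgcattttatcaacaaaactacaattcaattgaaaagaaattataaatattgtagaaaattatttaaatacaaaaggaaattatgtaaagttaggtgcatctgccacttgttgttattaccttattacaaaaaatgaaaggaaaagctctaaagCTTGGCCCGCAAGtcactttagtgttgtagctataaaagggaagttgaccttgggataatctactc
AT2G18193: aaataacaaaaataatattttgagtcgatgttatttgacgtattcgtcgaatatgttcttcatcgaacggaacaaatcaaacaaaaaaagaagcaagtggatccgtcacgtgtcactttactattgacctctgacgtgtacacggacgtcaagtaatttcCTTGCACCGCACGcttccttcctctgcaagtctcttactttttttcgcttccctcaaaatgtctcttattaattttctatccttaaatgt
AT2G04050: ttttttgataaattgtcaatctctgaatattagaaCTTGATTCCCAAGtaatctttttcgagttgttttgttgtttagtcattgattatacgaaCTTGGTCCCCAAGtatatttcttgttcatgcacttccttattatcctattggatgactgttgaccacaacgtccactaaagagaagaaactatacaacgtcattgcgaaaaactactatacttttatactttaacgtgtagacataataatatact
NAC044: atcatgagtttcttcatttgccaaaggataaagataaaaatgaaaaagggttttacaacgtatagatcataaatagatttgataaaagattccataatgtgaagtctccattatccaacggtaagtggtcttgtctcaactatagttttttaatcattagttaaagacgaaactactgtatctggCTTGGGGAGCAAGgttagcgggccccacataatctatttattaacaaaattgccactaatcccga

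Lists of mitochondrial stress and DNA damage genes, added after these genes were seen, did not move as wholes. Of 11 tested mitochondrial stress genes, 6 were higher and 4 lower than in WT at 24 h, and 2 were above all WT times, AT2G04050 and the cytokinin response factor gene CRF6, at 26, 24.4 and 24 CPM against 4.82, 4.08 and 3.4 CPM in WT at 24 h. UPOX, a common marker of mitochondrial stress, was lower, at 4.62, 3.01 and 2.74 CPM against 16.9, 14.4 and 14.6 CPM. The share of counts from the mitochondrial genome was 0.119% to 0.188% in hid1 at 48 h and 0.0172% to 0.028% in WT at 24 h. WT at 12 h, with 0.128% to 0.16%, and WT at 48 h, with 0.122% to 0.236%, overlapped hid1.

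Of 12 DNA damage genes, 4 were higher and 7 lower, and 3 were above all WT times. NAC044, a factor that arrests the cell cycle after DNA damage, was at 60, 60.9 and 59.5 CPM against 8.85, 7.74 and 6.3 CPM in WT at 24 h and 1.9, 1.9 and 1.76 CPM in WT at 48 h. GMI1, a gene induced by radiation, was at 104, 106 and 116 CPM against 46.4, 46 and 41.8 CPM in WT at 24 h. SMR7, a cell cycle inhibitor gene of the same response, was lower, at 0.17, 0.243 and 0.299 CPM against 5.21, 4.49 and 4.5 CPM.

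Some genes of sieve elements, the sugar-conducting cells of the phloem, were above all WT times. SEOA, a filament protein gene, was at 63.2, 59.5 and 63.1 CPM against 1.97, 2.18 and 0.9 CPM in WT at 24 h and 20.7, 16.1 and 19 CPM in WT at 48 h. SEOR1, its partner, was at 41.4, 38.2 and 44.5 CPM against 9.83, 9.36 and 7.05 CPM, and CALS7, a callose synthase of sieve pores, at 23.4, 26.6 and 28.2 CPM against 6.44, 7.18 and 6.05 CPM. SUC2, the sucrose carrier of companion cells, was lower, at 42.6, 38.9 and 39 CPM against 85.7, 82 and 68.3 CPM. Of 12 tested phloem genes, in a list added after these genes were seen, 7 were higher and 4 lower than in WT at 24 h. Against WT at 48 h 5 were higher and 5 lower, with a median log2 difference of -0.13, and SEOA, SEOR1 and CALS7 were the 3 above all WT times. The sieve element genes NAC045, NAC086 and NEN4 were lower than in WT at 48 h, by log2 differences of -1.71 ± 0.39, -1.87 ± 0.37 and -3.69 ± 0.50.

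The 95 genes below all WT times had a median level of 0.57 CPM in hid1. Of these, 38 reached 10 CPM in 1 of the groups, and in 35 of the 38 every hid1 library was below every WT library. The way these genes were chosen makes that separation likely in advance. HID1 led the list. AT2G35750 had 1 count in hid1 at 48 h and 812 in WT at 24 h, and whether its reads are shared with HID1 was not tested. LSM1A, of the complex that starts mRNA decay, was at 2.25, 1.89 and 1.65 CPM in hid1 at 48 h against 23.9, 22.9 and 24.3 CPM in WT at 24 h, and was as low in hid1 at the earlier times. HSPRO2, a gene of the starvation and defence response, was at 18.4, 16.9 and 18.8 CPM against 97, 85.3 and 102 CPM, and every WT library of the other times had at least 40.3 CPM.

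Auxin-inducible genes below all WT times were IAA2, an auxin response repressor, at 2.71, 3.16 and 2.89 CPM against 9.53, 9.87 and 10.8 CPM in WT at 24 h and 30.1, 27.6 and 25.3 CPM in WT at 48 h, and BRU6, an auxin-conjugating enzyme gene, at 1.57, 1.84 and 1.65 CPM against 8.4, 9.68 and 12.1 CPM. SULTR3;1, of the sulfate transporter family, was at 0.636, 1.46 and 0.897 CPM against 3.39, 3.98 and 4.05 CPM in WT at 24 h, and SULTR1;2, which takes up sulfate, had a log2 difference of -1.05 ± 0.16. PAL1 and 4CL1, enzymes that start phenylpropanoid synthesis, had log2 differences of -2.04 ± 0.36 and -1.49 ± 0.24. For PAL1 the replicates of WT at 12 h were at 5.54, 0.228 and 6.08 CPM, so its replicate 2 lay under the hid1 libraries at 1.95, 2.09 and 1.84 CPM. STP1, a hexose carrier, had 32.2, 30.8 and 32.6 CPM against 97.2, 86.3 and 88.8 CPM. SULTR1;2, PAL1, 4CL1 and STP1 were chosen after their values were seen, as were RGL2, AHG1, LEA4-1, LEA18, EM1, SESA3, SESA4, CYCB1;2, KN, CHLH, PIN3 and ICL above.

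**Figure D5:**
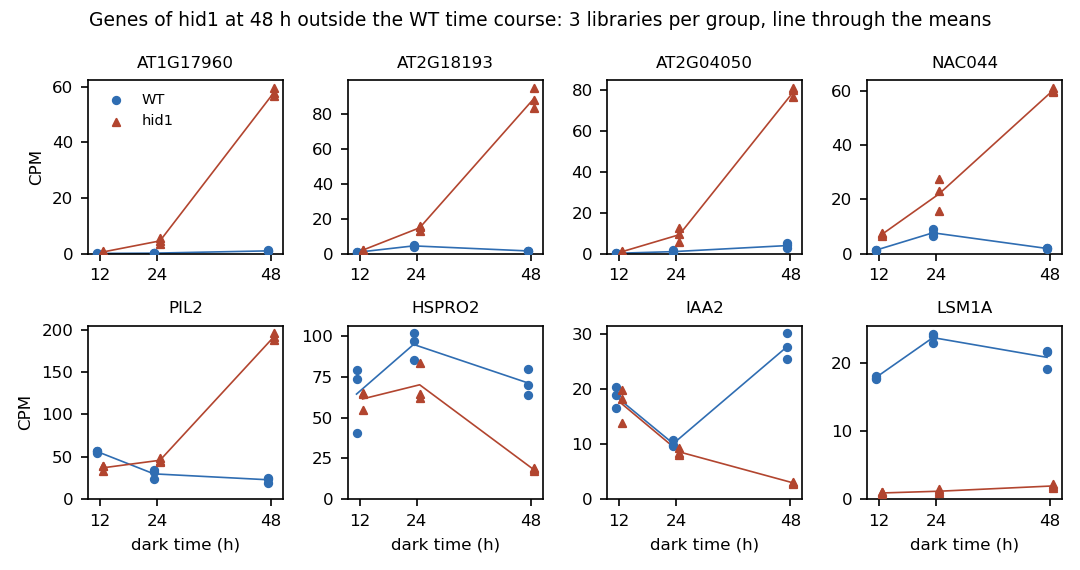
Level (y axis, CPM) against dark time (x axis, h) of 5 genes above and 3 genes below all WT times in hid1 at 48 h, in WT (blue circles) and hid1 (red triangles), with 1 point per library and a line through the group means. AT1G17960, AT2G18193, AT2G04050 and PIL2 climb steeply in hid1 between 24 and 48 h, NAC044 is already higher in hid1 at 12 h, and LSM1A is low in hid1 at all 3 times.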

How the data were processed

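Per the submitters' processing notes, reads were processed with fastp, HISAT2 2.1.0 and SAMtools 1.6 against TAIR10. Sources used here do not name the counting tool or its strand setting. The authors' deposited table holds raw counts per gene for 27 libraries, 33612 entries in all. The authors' deposited FPKM table holds 1 mean per group without replicates, so it served only for symbols and locus types. Counts were fitted with edgeR 4.0.16 (R 4.3.3) after filterByExpr and TMM scaling, with 1 coefficient for each of 9 groups and 18 residual degrees of freedom, and two-sided quasi-likelihood F tests were corrected for all genes of a comparison with the Benjamini-Hochberg method. Using all libraries gives 1 shared estimate of spread. Standard errors come from the log2 difference and its F value, and 95% intervals from the t distribution. Levels are CPM on TMM-scaled library sizes (per 1e+06 counts). A group without counts enters at a floor of 3 counts, and ratios to 1 to 3 counts carry counting intervals. Reads carry no molecular identifiers, so these cover counting error only.

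On simulated counts for this comparison with 18202 genes, 98 of 100 genes changed 2-fold and 100 of 100 changed 4-fold were recovered, with 9 other genes called. Pairs of replicates within WT and hid1 groups had a chi-square of 2.742 to 19.55 per gene, above the value of 1 for counting noise alone, so each was counted as its own sample. Genes were named by rank of change in each class (at least 10 CPM and no overlap between replicates), by the smallest p in each list, or as fixed hormone and light genes. The members and lists were chosen with earlier results of these data known. Promoter windows are the 250 bases before each start in RefSeq's TAIR10.1 annotation, matched by locus tag. Every class of genes was read for every motif named here and for the telo-box AAACCCTAA, and only some of these shares are given. Alternatives tried were other scalings (RLE, total counts), no filter, DESeq2 1.42.0, fewer libraries in the fit, a replicate block, other fold limits and leaving out each replicate.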

Additional observations from a re-analysis of the deposited data

How the results depend on the processing

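The count of genes passing against WT at 24 h was 12490 with DESeq2, 12719 in a fit of the 6 libraries and 12078 to 12328 when 1 replicate was left out. Replicate numbers gave no sign of shared material between hid1 at 48 h and WT at 24 h: deviations of same-numbered libraries correlated at 0.00213, 0.0548 and 0.0021. With the replicate number as a block, 13154 genes passed, 255 were above and 98 below all WT times, and no count moved by over 1.5 times. The classes depend on the fold limit. With 1.5-fold in place of 2-fold, 505 genes were above and 225 below all WT times, 655 were at the WT level of 48 h below WT at 24 h, and 595 lay between the WT times below WT at 24 h. With 4-fold, these were 93, 21, 87 and 14, genes held above and below WT at 48 h were 520 and 1086, and rising genes between the WT times were 526. Leaving out 1 replicate gave 260 to 280 genes above and 87 to 102 below all WT times, 1076 to 1235 and 1673 to 1826 held above and below WT at 48 h, 449 to 525 and 272 to 308 at the WT level of 48 h above and below WT at 24 h, and 1104 to 1212 and 147 to 175 between. The main count of 254 genes above all WT times lies under the range given. Each refit also filtered the genes anew, so the genes tested differed as well. Other settings took the held counts above and below WT at 48 h beyond the leave-one-out ranges. They were 984 and 1913 with RLE scaling, and 1340 and 1561 in a fit of the 18 WT and hid1 libraries. Without the filter they were 1113 and 2207, and with the replicate block 1164 and 1477. Scaling by total counts raised the share of higher genes among those passing against WT at 12 h from 52.3% to 65.9%. Of 174 named genes none reversed, 3 lost their call in some setting (EXPA7, EXPA18 and LRX1) and 7 gained one. Genes near 0 in both groups count as held without evidence of expression, and limiting the held genes to at least 10 counts in both groups, an alternative chosen after seeing the data, gave 1161 and 1471.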

Other observations

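Entries to which the authors' deposited table gives no locus type were frequent among the genes above all WT times. Of 256 such entries tested, 29 (11.3%) were above all WT times in hid1 at 48 h, beside 225 of the other 20209 (1.11%). Against WT at 24 h, 109 of the 256 were higher and 37 lower. AT3G42806.1 was at 91.5, 94.6 and 86.7 CPM in hid1 at 48 h and at 6.83, 6.39 and 6 CPM in WT at 24 h, and AT5G43800.1 had 0, 0.0486 and 0.149 CPM in hid1 against 25.1, 24.7 and 21.2 CPM in WT. Both stood apart from WT at 12 h and 48 h as well. Reads shared with near-identical copies elsewhere were not tested, and both entries were chosen after their values were seen.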
